A study of Aliger gigas with 7 samples.

Results

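The cytochrome P450 titles of subfamilies 3A, 1B and 4A, and a title named after the plant P450 CYP76C1, were followed in the ovaries of 7 wild queen conchs, Aliger gigas, a marine gastropod. A title is the name of the closest known protein that the authors attached to a conch sequence, and it does not establish an orthologue. The rule took every title that begins with one of these 4 names, and found 6 titles among the 4328 of the table and among 30 titles that name a P450. They are Cytochrome P450, Family 3, Subfamily A, Polypeptide 5 (the 3A5 title), Cytochrome P450, Family 3, Subfamily A, Polypeptide 65 (3A65), Cytochrome P450, Family 3, Subfamily A, Polypeptide 43 (3A43), Cytochrome P450, Family 1, Subfamily B, Polypeptide 1 (1B1), Cytochrome P450, Family 4, Subfamily A, Polypeptide 10 (4A10) and CYP76C1; Heme Binding / Iron Ion Binding / Monooxygenase (CYP76C1). These families were chosen by the difference between the sites that some of their titles had shown on these same arrays. The site differences of the 6 titles are therefore given as a description, without a test.

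The 4 offshore animals (OF1 to OF4) were mature adult females from Pelican Shoal, where conchs reproduce normally, and all 4 were labelled normal females. The 3 nearshore animals were mature adults from Tingler Island, where reproduction is impaired. NM3 carried the label apparent imposex female, that is, a female with male sexual characters, and the others, NF1 and NF3, that of normal female. No animal received a treatment, and each single-colour array held the ovary RNA of 1 animal. Site and place of collection cannot be told apart from any other property in which these 2 collections of animals differed.

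Cytochromes P450 are haem enzymes that insert an oxygen atom into their substrate, with electrons delivered by a reductase or a ferredoxin. In vertebrates the 3A enzymes oxidise steroids and a wide range of foreign compounds, CYP1B1 oxidises oestrogens and polycyclic aromatic compounds, and the 4A enzymes hydroxylate the end of fatty acid chains. CYP76C1 is an enzyme of Arabidopsis that oxidises monoterpenols. In molluscs such roles are inferred from sequence likeness, and the title does not show what the conch enzyme acts on. All values below are the authors' log2 signals. The signals of different titles come from different probes, so a level is read across animals within a title and not between titles.

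The arrays had mean log2 signals from 5.83 to 5.89, and the 6 titles lacked no value on any of them. NM3 lacked a value for 45 of the 4328 titles, and each other array for at most 3. Vitellogenin 2, the yolk precursor made for the egg, had a mean of 17.07 ± 0.21 (SD, n = 4) offshore and 15.36 ± 2.34 (n = 3) nearshore, with NF1 at 12.69. In bulk tissue, fewer cells of a type and less RNA per cell cannot be told apart.

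In family 3A, a pair of titles had much lower signals in every nearshore ovary, and the remaining one had about the same signal at both sites. The 3A5 title stood at 9.14 (OF1), 8.67 (OF2), 9.02 (OF3) and 9.73 (OF4). Nearshore it stood at 3.46 (NF1), 6.65 (NF3) and 7.04 (NM3). The sites did not overlap, and a gap of 1.64 separated the highest nearshore from the lowest offshore animal. The offshore mean was 9.14 ± 0.44 (SD, n = 4) and the nearshore mean 5.71 ± 1.96 (n = 3), a log2 difference of -3.43 (SE 0.83), which is a signal 10.7-fold higher offshore. NF1 was far below the other nearshore animals, and the difference was -2.30 without it, against -4.09 without NM3.

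The 3A65 title, whose name comes from a zebrafish enzyme, followed the same order of animals. It stood at 9.03 (OF1), 8.58 (OF2), 9.01 (OF3) and 9.71 (OF4), and at 5.04 (NF1), 6.84 (NF3) and 7.08 (NM3). Again OF4 was highest, OF2 was the lowest offshore animal, NF1 was lowest of all, and the groups did not overlap. The mean was 9.08 ± 0.47 offshore and 6.32 ± 1.11 nearshore, a log2 difference of -2.76 (SE 0.53), or 6.76-fold higher offshore. Without NF1 the difference was -2.12.

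The 3A43 title is named after a human enzyme of the same subfamily. It stood at 7.48 (OF1), 6.66 (OF2), 7.04 (OF3) and 6.58 (OF4), and at 6.99 (NF1), 6.61 (NF3) and 6.73 (NM3). The nearshore animals lay inside the offshore range. The means were 6.94 ± 0.41 and 6.78 ± 0.20, a log2 difference of -0.16 (SE 0.29) that was smaller than the spread between animals. Its sign is not settled, since it was 0.02 without OF1.

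**Figure D1:**
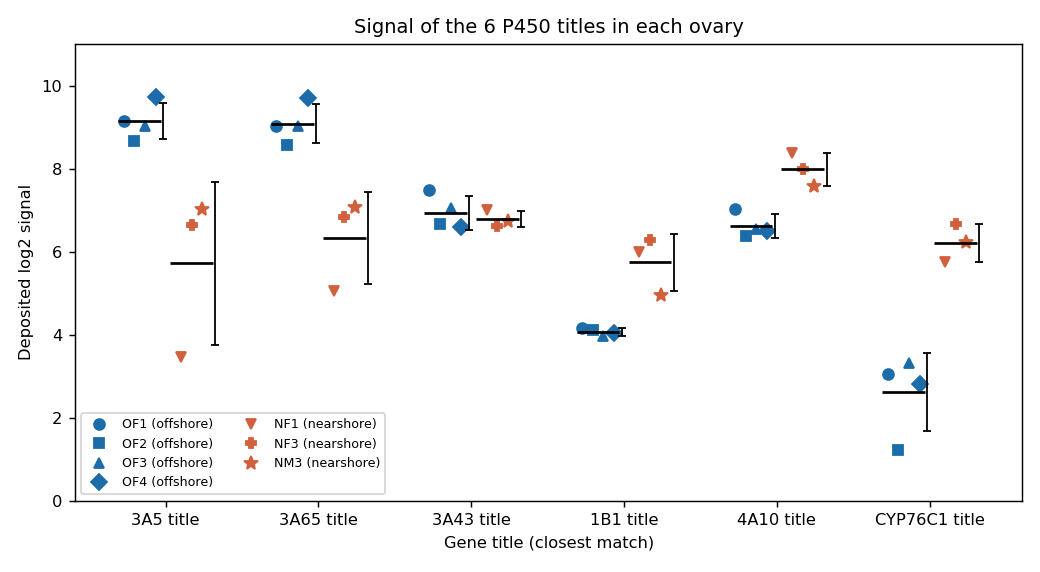
Deposited log2 signal of the 6 P450 titles in each ovary, offshore in blue and nearshore in orange, with the mean (line) and SD (bar) of each site. The 3A5 and 3A65 titles were lower in all nearshore animals, the 1B1, 4A10 and CYP76C1 titles were higher in all of them, and the 3A43 title overlapped.

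The titles named for the other families had higher signals nearshore. The 1B1 title had almost the same value in each offshore ovary, at 4.16 (OF1), 4.10 (OF2), 3.96 (OF3) and 4.03 (OF4). Nearshore it was at 6.0 (NF1), 6.27 (NF3) and 4.96 (NM3). All nearshore animals were above all offshore animals, and the imposex animal NM3 stood between NF1 and NF3 on one side and the offshore group on the other. The mean went from 4.06 ± 0.09 to 5.74 ± 0.69, a log2 difference of 1.68 (SE 0.34), or 3.20-fold higher nearshore. Without NM3 it was 2.07.

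The 4A10 title, named after a mouse fatty acid hydroxylase, stood at 7.03 (OF1), 6.37 (OF2), 6.55 (OF3) and 6.49 (OF4). It was at 8.37 (NF1), 8.0 (NF3) and 7.58 (NM3). The groups did not overlap, but the gap between OF1 and NM3 was only 0.56. The mean was 6.61 ± 0.29 offshore and 7.98 ± 0.39 nearshore, a log2 difference of 1.38 (SE 0.29), or 2.59-fold higher nearshore. It ran from 1.18 without NF1 to 1.58 without NM3.

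The CYP76C1 title had a low and variable signal offshore and a higher one in every nearshore ovary. It stood at 3.06 (OF1), 1.23 (OF2), 3.32 (OF3) and 2.82 (OF4), and at 5.75 (NF1), 6.66 (NF3) and 6.22 (NM3). The groups were separated by 2.43, more than the 2.09 between the highest and the lowest offshore animal. The mean went from 2.61 ± 0.94 to 6.21 ± 0.46, a log2 difference of 3.60 (SE 0.53), or 12.2-fold higher nearshore. OF2 alone lay well below the rest, and the difference was 3.15 without it. The offshore mean lay just under 2.63, the lower quartile of all titles. The distance of such low signals from background is not known, so this fold is uncertain.

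In the fit over all titles, 5 of the 6 were past an adjusted p of 0.05 in limma, where 9.24% of all titles were, with 3 higher nearshore (3.90% of all titles) and 2 lower (5.34%). Groups without overlap occurred in 5 of the 6 and in 24.4% of all titles. Because this difference is what the families were chosen by, these counts describe the choice and support nothing. Among all 4328 titles the 3A5 title had the 6th lowest difference and 3A65 the 20th lowest, and the CYP76C1 title the 9th highest. The 1B1 and 4A10 titles ranked 174th and 298th among the differences from the highest down.

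The spread between animals of a site does not enter the difference of the means, but it enters the limma p. A choice by such differences can therefore favour a small spread, and the spreads below are a description only. Offshore, the SD of the 1B1 title was larger than that of only 3.91% of all titles with 7 values, whereas those of 3A5 and 3A65 were near the middle, above 50.3% and 53.8%. The CYP76C1 title was among the more variable offshore, above 89.6%, and OF2 accounted for most of its range. Nearshore the order changed, and the SD of the 3A5 title was above 96.6% of titles and that of 3A65 above 85.1%. The 3A43 title was among the steadier ones nearshore, above 14.1%.

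NM3 was the nearshore animal closest to the offshore range in 4 of the 5 titles without overlap, namely 3A5, 3A65, 1B1 and 4A10. For CYP76C1 it was NF1. The 3A5 and 3A65 titles rank the animals alike, so they do not count as independent of each other here. Among the 397 titles past the threshold with 7 values, NM3 was the closest in 39.3%, NF3 in 36.5% and NF1 in 24.2%. NM3 was the only imposex animal, so a difference between imposex and normal females could not be tested.

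**Figure D2:**
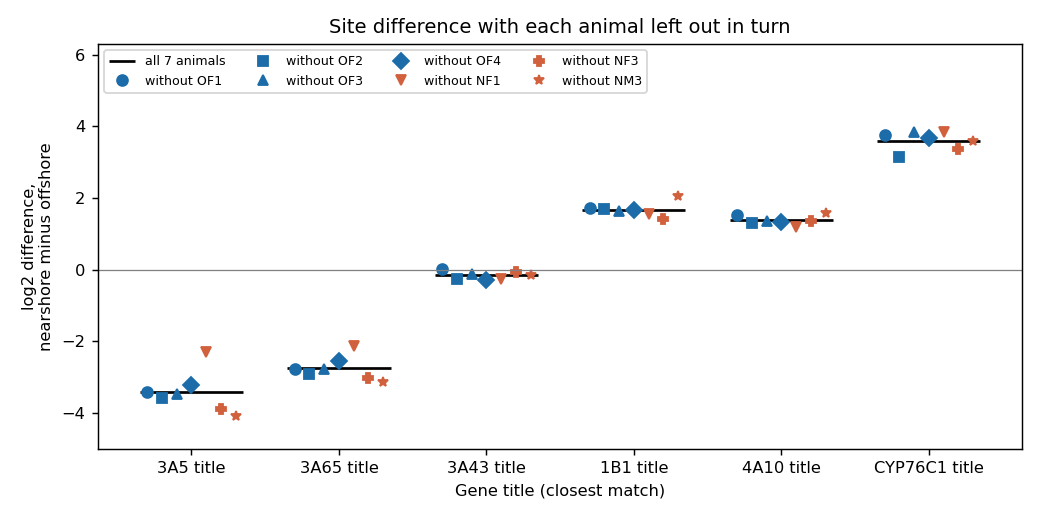
Log2 difference of each title, nearshore minus offshore, with all 7 animals (line) and with each animal left out in turn (symbols). The 3A5 difference ran from -4.09 to -2.30 and that of CYP76C1 from 3.15 to 3.84, and only the 3A43 title changed sign.

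The 3A5 and 3A65 titles ranked the 7 animals in the same order. NF1 deviated from the nearshore mean by -2.25 in 3A5 and by -1.28 in 3A65, and OF4 from the offshore mean by 0.59 and 0.63. Over the deviations of each animal from the mean of its site, Pearson's r between them was 0.98 (n = 7 animals). It stayed between 0.97 and 0.99 with any 1 animal left out. The files do not say whether both names stand for 1 conch transcript, for alleles or for close paralogues, so they are not counted as independent evidence of each other. The 3A43 title did not follow them, with r of -0.36 to 3A5 and -0.38 to 3A65 over the same deviations. These correlations are descriptions across animals that share arrays, and no p is given.

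Other P450 titles of the same family gave the comparison. The pair of family 51 titles, named after the sterol demethylase CYP51, also ran together, with r of 0.98 over the deviations. The family 20 pair had r of 0.57. The family 1A pair had r of 0.84, and OF4 was the highest offshore animal in both of its titles. Of this pair, Cytochrome P450, Family 1, Subfamily A was dim, at 0.75 to 1.85 in all animals but OF4. Among the 4 family 2 titles r ran from -0.61 to 0.91, the highest being between Cytochrome P450, Family 2, Subfamily J, Polypeptide 2, B and Similar To Cytochrome P450, Family 2, Subfamily U, Polypeptide 1, which differ in subfamily. The subfamily J title of this pair was at 1.02 to 1.24 in all animals, near the bottom of the scale, so this r rests on very small differences. The 1A titles did not follow 1B1, with r of -0.32 for Cytochrome P450, Family 1, Subfamily A and 0.16 for Polypeptide 2. Cytochrome P450, Family 4, Subfamily F, Polypeptide 12 had r of 0.22 to the 4A10 title.

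**Figure D3:**
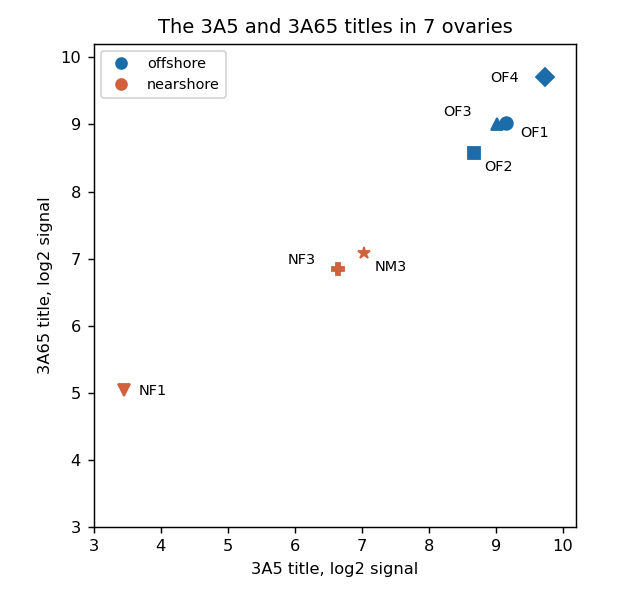
Log2 signal of the 3A65 title against the 3A5 title in each ovary, offshore in blue and nearshore in orange. Both titles give the animals the same order, from NF1 as the lowest to OF4 as the highest, and the axes are not comparable as amounts.

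Across all 7 animals the 1B1, 4A10 and CYP76C1 titles ran together, with r from 0.86 to 0.94, and opposite to 3A5 and 3A65, with r from -0.93 to -0.71. These values include the difference between the sites by which the families were chosen. Over the deviations from the site means, r was 0.62 between 1B1 and 4A10, 0.01 between 1B1 and CYP76C1, and 0.21 between 4A10 and CYP76C1. The value for 1B1 and 4A10 rested on NM3, and was -0.07 without that animal. The 4A10 title had r of -0.62 to 3A5 and -0.58 to 3A65. It had r of 0.75 to 3A43, with OF1 and NF1 the highest of their sites in both.

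The titles with the most similar pattern were taken by Pearson's r over the 7 animals, and by r over the deviations from the site means. With 7 animals and 4275 titles, high values of r are common. At r of 0.95 or more there were 45 titles for 3A5, 52 for 3A65, 25 for CYP76C1, 26 for 1B1, 29 for 4A10 and 0 for 3A43 over the 7 animals. The closest to 3A5 were Calcium Regulated Heat Stable Protein 1, an RNA-binding protein with a cold-shock domain (r = 0.996), Similar To Peroxiredoxin 1, which removes peroxides (0.995), and 3A65 itself (0.988). Within sites they were Similar To DNA-binding Protein, Zgc:55865 and Hypothetical Protein MGC33948, each at 0.993, and 3A65 ranked 12th of 4274.

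For 3A65 the closest over the 7 animals were Acetyl-Coenzyme A Dehydrogenase, Long-chain (0.993), Calcium Regulated Heat Stable Protein 1 (0.993) and Translocase Of Outer Mitochondrial Membrane 70 Homolog A, a receptor for imported mitochondrial proteins (0.992). Within sites they were Hypothetical Protein LOC587628 (0.992), Similar To Peroxiredoxin 1 (0.989) and Short Chain Dehydrogenase (0.988). Similar To Peroxiredoxin 1 was thus near both 3A titles. Its signal was 14.68 (OF1), 14.35 (OF2), 14.66 (OF3) and 15.03 (OF4), and 12.27 (NF1), 13.79 (NF3) and 13.82 (NM3), so NF1 was again the lowest animal.

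For the 1B1 title the closest over the 7 animals were Similar To COP9 Signalosome Subunit 4 (0.985), Chromosome 2 Open Reading Frame 16 (0.983) and Cytotoxic Granule-associated RNA Binding Protein 1 (0.981). Within sites they were EH-domain Containing 3 (0.997), Actin-like 6B (0.993) and Similar To Family With Sequence Similarity 46, Member C (0.993). In all 3 of the latter NM3 was the lowest nearshore animal, as in 1B1. For 4A10 the closest were Villin 1, an actin-bundling protein of microvilli (0.992), Hypothetical Protein LOC553228 (0.985) and Similar To LOC495993 Protein (0.984). Within sites Hypothetical Protein FLJ38101 (0.990), Hypothetical Protein LOC553228 (0.987) and Phosphoenolpyruvate Carboxylase Kinase (0.987) were closest.

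For CYP76C1 the closest were Basigin, a membrane glycoprotein (0.989), Carboxypeptidase A1, a digestive protease (0.989), and Dual Specificity Phosphatase 19 (0.985). Within sites they were Malate Dehydrogenase 1, NAD (0.982), Chromosome 9 Open Reading Frame 78 (0.965) and DnaJ Homolog, Subfamily A, Member 3A (0.952), and in these OF2 was the lowest offshore animal, as in CYP76C1. For 3A43 the closest titles reached 0.934 over the 7 animals, for 3-hydroxyisobutyryl-CoA Hydrolase/ Catalytic. A mevalonate kinase title followed at 0.933, and Similar To Ankyrin 2 Isoform 2 / Similar To Ankyrin-2 at 0.920. Within sites the mevalonate kinase title (0.992), Putative Receptor-like Protein Kinase (0.968) and Similar To Glutathione S-transferase Omega 1 (0.948) came first. The receptor kinase and the mevalonate kinase titles are dim, with values from 0.84 to 3.81.

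The other 24 P450 titles are those left after the families that differed were taken out, so their count is partly set by that choice. In limma 0 of 24 had an adjusted p under 0.05, and 1 had an unadjusted p under 0.05, which 26.1% of all titles had. All 30 P450 titles together gave 5 past the threshold (16.7%), where 9.24% of all titles were. The median log2 difference of the 24 was -0.40, with 18 below 0, against a median of -0.01 for all titles. Many are too dim to say more, since 11 of the 24 have a mean below the lower quartile of the table. The nearest to the threshold was Similar To Cytochrome P450, Family 2, Subfamily U, Polypeptide 1, at 7.75, 8.96, 9.17 and 8.10 in OF1 to OF4. Nearshore it was at 7.67 (NF1), 7.05 (NF3) and 6.98 (NM3), so the groups did not overlap. Its log2 difference was -1.26 (SE 0.41), with a limma adjusted p of 0.105.

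Next came Similar To Cytochrome P450, with a difference of 0.69 (SE 0.33, limma adjusted p = 0.237), and Cytochrome P450, Family 20, Subfamily A, Polypeptide 1, an enzyme whose substrate is not known, with -0.67 (SE 0.32, limma adjusted p = 0.246). Cytochrome P450, Family 1, Subfamily A, Polypeptide 2, in vertebrates an enzyme raised by aromatic pollutants, had a difference of -1.40 (SE 0.72, limma adjusted p = 0.27). This value came mainly from OF4, at 5.34 where the other animals were at 1.58 to 3.29, and it was -0.74 without OF4. The 1B1 title, of the same family, had no such peak in OF4. Cytochrome P450, Subfamily XVII, named after the steroid 17-hydroxylase of vertebrates, was at 10.46 ± 0.38 offshore and 10.04 ± 0.52 nearshore, with groups that overlapped.

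**Figure D4:**
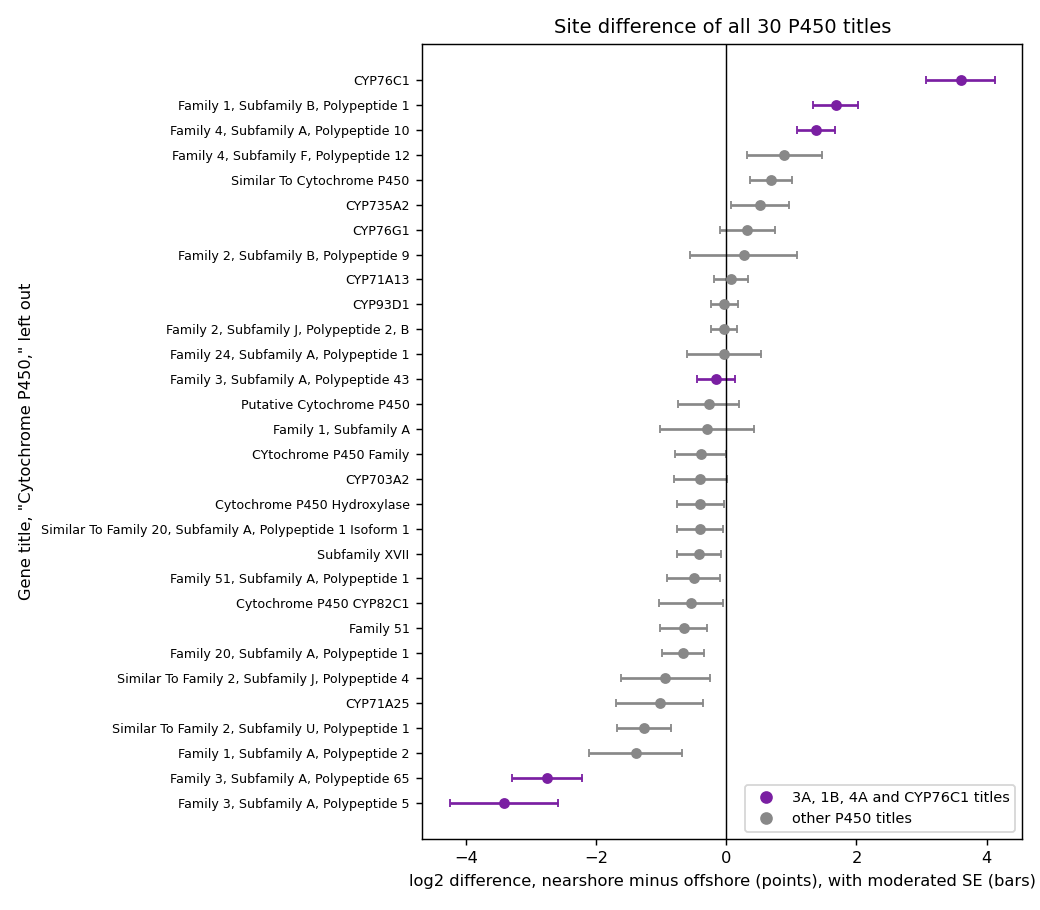
Log2 difference, nearshore minus offshore, of all 30 P450 titles, with moderated SE. The 3A5 and 3A65 titles lie at the low end and CYP76C1, 1B1 and 4A10 at the high end, and the other 24 lie between -1.40 and 0.89.

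Titles found by name searches for P450 partners and for related enzymes, transporters and regulators passed at a share near that of all titles. Over these 6 lists, 6 of 82 titles (7.32%) passed, against 9.24% of all titles, with 2 higher and 4 lower nearshore. An unadjusted p under 0.05 was found for 26.1% of all titles. With 1 animal left out, 0 to 4 were higher and 0 to 3 lower. Of 8 titles for electron donors and haem synthesis, 0 passed in limma and 1 had an unadjusted p under 0.05. Outer Mitochondrial Membrane Cytochrome B5, an electron carrier, had a difference of 1.29 (SE 0.50, limma adjusted p = 0.150), with OF1 at 11.62 above NF1 at 11.21, and 0.84 without NM3. Similar To Adrenodoxin, Mitochondrial Precursor, the ferredoxin of mitochondrial P450, had 0.98 (SE 0.47, limma adjusted p = 0.246), with NF3 at 6.75 inside the offshore range. It passed without NF3, with a difference of 1.57 and a limma adjusted p of 0.042, and over all alternatives its limma adjusted p ran from 0.042 to 0.48. Ferredoxin Reductase, which reduces adrenodoxin, had 0.78 (SE 0.44), which was 0.51 without NM3 and 1.23 without NF1. Aminolevulinate, Delta-, Dehydratase, an enzyme of haem synthesis, had 0.90 (SE 0.50), which was 0.28 without NM3 and 1.36 without NF3. Of the 8 differences 5 were above 0 and 3 below, where 2139 of all 4328 titles were above 0. Similar To Cytochrome B-5 had 0.34 (SE 0.47), with NM3 the lowest animal at 11.42. The haem synthesis titles Uroporphyrinogen Decarboxylase and Protoporphyrinogen IX Oxidase had -0.39 (SE 0.35) and -0.48 (SE 0.79).

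Of 24 titles for other oxidising, reducing and hydrolysing enzymes, 1 rose and 2 fell. Aldehyde Dehydrogenase 1 Family, Member A2, which makes retinoic acid in vertebrates, rose from 8.57 ± 0.48 to 10.46 ± 0.22, a difference of 1.89 (SE 0.32, limma adjusted p = 0.020). Its nearshore values were 10.30 (NF1), 10.71 (NF3) and 10.37 (NM3), above the offshore maximum of 9.22 in OF1. Similar To Carboxylesterase Family Member, an ester hydrolase, fell by 1.65, from 5.85 ± 0.35 to 4.20 ± 0.31 (SE 0.29, limma adjusted p = 0.020). The other fall, Aminoadipate-semialdehyde Dehydrogenase-phosphopantetheinyl Transferase, was caught by its name and does not act on foreign compounds. Of the 7 fits without 1 animal these 3 titles passed in 3, 4 and 0. Aldehyde Dehydrogenase 1 Family, Member A1 had a difference of 2.16 (SE 0.58, limma adjusted p = 0.063), with 10.30 (NF1), 8.17 (NF3) and 9.27 (NM3) above an offshore maximum of 7.69.

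Of 31 titles for conjugating enzymes, which attach polar groups to oxidised compounds, 1 rose and 1 fell. Sulfotransferase Family 1B, Member 1 rose by 1.62 (SE 0.38, limma adjusted p = 0.042), from 4.17 ± 0.40 to 5.79 ± 0.64. A title of nearly the same name, Sulfotransferase Family, Cytosolic, 1B, Member 1, had a difference of only 0.07 (SE 0.64, limma adjusted p = 0.971). UDP-glycosyltransferase/ Transferase, Transferring Hexosyl Groups fell by 1.37 (SE 0.34, limma adjusted p = 0.047), at a nearshore mean of 1.08 near the bottom of the scale. This UDP-glycosyltransferase title and Sulfotransferase Family 1B, Member 1 each passed in 1 of the 7 fits without 1 animal. Sulfotransferase, Estrogen-preferring and Glutathione S-transferase, Pi 1 had differences of 1.32 and 0.94, with limma adjusted p of 0.122 and 0.134. Further Pi titles went both ways. Glutathione S-transferase Pi / Glutathione S-transferase Pi 2 had 0.57, and Similar To Glutathione S-transferase Pi, without a value in NM3, had -0.50. Of 6 efflux transporter titles 1 fell, ATP-binding Cassette, Sub-family A, Member 2, a lipid transporter, by 1.61 (SE 0.34, limma adjusted p = 0.034). It passed in 1 of the 7 fits. The 3 transporter titles of subfamilies B and C had differences from -0.89 to 1.09 and did not pass. The extremes rested on NM3. Without it ATP-binding Cassette, Sub-family C, Member 11 had 0.07 in place of 1.09, and Member 6 had 0.18 in place of -0.89.

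Of 3 titles for ligand-activated regulators and their partners, 0 passed in limma and 1 had an unadjusted p under 0.05. Estrogen Receptor 1 was dim, at 1.30 ± 0.41 offshore and 2.60 ± 0.97 nearshore (limma adjusted p = 0.134), and it passed without NF3, with a difference of 1.86. Aryl Hydrocarbon Receptor Interacting Protein-like 1, a co-chaperone by its name, had a difference of 0.62 (SE 0.32), which was 0.33 without NF3. Of 10 titles for steroid and sterol proteins, 0 passed in limma and 3 had an unadjusted p under 0.05, which 26.1% of all titles had. Of the 10 differences 9 were below 0, where 2189 of all 4328 titles were. Their median was -0.68, and they ran from -1.75 to 0.73. Hydroxysteroid Dehydrogenase 12, named after an enzyme of steroid and fatty acid metabolism, had -1.28 (SE 0.40, limma adjusted p = 0.095) and passed without NF3, with -1.78. Steroid 5 Alpha-reductase 1, which reduces testosterone in vertebrates, was at 1.19 in NM3 and at 4.58 to 5.57 in the other 6 animals. Its difference of -1.75 became -0.56 without NM3.

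Markers of other tissues were read beside these values, because P450 enzymes are abundant in the digestive gland. Of 28 digestive gland titles 1 rose and 1 fell, where 3.90% and 5.34% of all titles did. The log2 of the summed signal of the 28 ran from 11.98 to 17.06 offshore and from 13.69 to 17.35 nearshore. It was 17.06 in OF1, 16.64 in OF3, 12.62 in OF2 and 11.98 in OF4, and 15.68 in NF1, 13.69 in NF3 and 17.35 in NM3. Of the 28 titles 13 had a mean below the lower quartile of the table. Carboxypeptidase A1, the title that rose, was among the closest to CYP76C1. Serine Carboxypeptidase 1, the title that fell, had a difference of -1.83 (SE 0.42, limma adjusted p = 0.041). The median difference of the 28 was 0.12. NF3 had the highest CYP76C1 signal, 6.66, and the lowest nearshore sum, 13.69. Offshore, OF1 and OF3 had the highest sums, 17.06 and 16.64, and also the highest CYP76C1 signals, 3.06 and 3.32. The part of digestive gland RNA in the P450 values was not tested.

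Over all titles 3.90% rose and 5.34% fell. Of 17 muscle titles 3 rose and 0 fell, and their summed log2 signal was 11.19 to 11.47 offshore and 11.99 to 12.75 nearshore. Among those that rose, Myosin, Heavy Polypeptide 9, Non-muscle is by its name not a muscle protein. That of 10 nerve titles, 1 of which rose, was 8.76 to 9.64 and 9.72 to 10.84. A sum is carried by the brightest titles. The sums of both lists did not overlap between the sites, but the nerve titles had a median difference of -0.33, with 6 of 10 below 0, and their mean signals overlapped, at 3.84 to 4.37 offshore and 4.07 to 4.68 nearshore. The muscle titles had a median difference of 0.28, with 12 of 17 above 0, where 2139 of all 4328 titles were. Their mean signals did not overlap, at 4.76 to 5.28 offshore and 5.42 to 5.65 nearshore. The part of either tissue in the P450 values was not tested. Of 13 haemocyte titles 1 rose and 1 fell, with sums of 17.31 to 18.14 and 16.41 to 17.50. The brightest were Collectin Sub-family Member 11 and C-type Lectin Domain Family 4, Member A, which carry the sum. The list also holds titles caught by part of their name, such as Plectin 1, so the sum does not measure haemocyte content. The 10 ovary titles, of which 0 passed in limma and 5 had an unadjusted p under 0.05 (26.1% of all titles did), summed to 17.11 to 17.51 offshore. Nearshore they summed to 17.19 in NF3, 16.55 in NM3 and 13.72 in NF1, the animal in which 3A5 and 3A65 were lowest. Vitellogenin 2 was the brightest ovary title in every animal, and it was at 12.69 in NF1. The list did not move as a whole. In NF1 Piwi-like 1 was at its lowest, 11.55, but Bol, Boule-like was at its highest, 11.74. Of the 10 differences 3 were above 0 and 7 below. The part of ovary RNA in the 3A values was not tested.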

How the data were processed

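Ovary RNA of 7 animals (4 offshore, 3 nearshore, grouped by the location in the labels) was measured on single-colour arrays, 1 per animal. Each array took Cy3-labelled material from 1 ug of RNA, per the labels. The submitters' processing notes name Agilent Feature Extraction. The authors deposited 1 log2 value per title and array, and the log base, normalization, background treatment and condensing of probes are not given in the sources used. Base 2 was read from the range of the values. Column means were nearly equal, so no further normalization was applied. The table holds no detection calls, and the number of arrays limits the precision.

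Nearshore minus offshore was fitted with limma 3.58.1 in R 4.3.3 (lmFit, eBayes, two-sided) over all 4328 titles, with Benjamini-Hochberg adjustment and a threshold of 0.05. The verbs rose and fell mark titles past that threshold. SE is moderated, and SD is between animals. 53 titles lack 1 value and were fitted on the rest. They were left out of correlations and of cyclic loess. The test was tried on simulated data. The P450 titles and all lists were chosen with earlier results of these data known. The text names the 6 P450 titles, up to 4 titles per list with the smallest p, and the 3 most similar titles per P450 title and measure. Subfamily XVII, family 51, 4F12, vitellogenin, plectin and C-type Lectin Domain Family 4 titles were added after their values were seen. So were Cyclin B1, Deleted In Malignant Brain Tumors 1, Similar To Cytochrome B-5, Uroporphyrinogen Decarboxylase and Protoporphyrinogen IX Oxidase. The cytosolic 1B sulfotransferase and the further Pi titles of glutathione S-transferase were added in the same way. Lists are search patterns on titles and hold some stray names, such as plant enzymes, a non-muscle myosin and plectins. Alternatives were quantile, median and cyclic loess normalization, leaving out the dimmest 25% of titles, array weights, a mean-dependent robust prior, an adjusted p under 0.10, Spearman's rho, and leaving out each animal.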

Additional observations from a re-analysis of the deposited data

Results flagged for a closer look

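Over the 53 titles looked at, which are all P450 titles and the titles named from the other lists, 2 had an offshore animal far from the other 3, where chance alone marks about 1 in 20 groups. Cytochrome P450, Family 1, Subfamily A was at 3.58 in OF4 and at 0.75 to 0.97 in OF1, OF2 and OF3. CYtochrome P450 Family was at 1.83 in OF4 and at 2.63 to 2.80 in the other offshore animals. None of the 6 titles of subfamilies 3A, 1B and 4A and of CYP76C1 was marked. The 3 nearshore animals are too few for this check.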

How the results depend on the processing

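The 6 alternatives that kept all animals gave -3.57 to -3.34 for 3A5, -2.86 to -2.68 for 3A65, -0.20 to -0.11 for 3A43, 1.64 to 1.82 for 1B1, 1.34 to 1.45 for 4A10 and 3.47 to 3.65 for CYP76C1. The other P450 titles past the threshold numbered 0 under all 14 alternatives. All titles past it numbered 400, from 34 to 302 with 1 animal left out (34 without OF4, 42 without OF3), and 659 at an adjusted p under 0.10. In the 7 lists, titles that rose numbered 2, and 0 to 4 with 1 animal left out. Those that fell numbered 4, and 0 to 3 with 1 animal left out. For 1B1 and 4A10 within sites, r was 0.62, 0.45 after quantile normalization, -0.073 to 0.80 with 1 animal left out, and -0.073 without NM3. The causes were not tested. No paired analysis was possible because the animals of the 2 sites are different individuals, and their codes do not link them. Signals below the lower quartile of 2.63 have an unknown distance from background.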
